A study of Mus musculus with 6 samples.

Results

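The integrated stress response set held 10 genes, Atf4, Atf5, Ddit3, Ddit4, Trib3, Chac1, Sesn2, Ppp1r15a, Xbp1 and Eif2ak3, and was defined by these names. Every non-control probe designed on a transcript of one of these genes was taken, which gave 15 of the 56601 probes tested and 10 of the 23458 genes with a named and tested probe. The data were gene expression microarrays of microglia, the resident macrophages of the brain, sorted as CD45low CD11b+ Cx3cr1+ cells from Percoll-enriched brain cells of 3-month-old mice on the C57BL/6 background. Of the 6 samples, 3 came from Bhlhe41 dTomato-Cre/+ mice, called B41HET and labelled Ctrl, and 3 came from Bhlhe41 dTomato-Cre/dTomato-Cre mice, called B41KO. In this allele a reporter cassette (dTomato and Cre with a polyA signal, under the gene's own promoter) sits before the start codon and stops translation of Bhlhe41, a transcriptional repressor that binds E-boxes. All 6 samples therefore carried the reporter allele, the controls were heterozygous, and no wildtype array was analysed here. Each sample was a pool of 10 to 15 mice by the study's methods, whereas the labels speak of 3 mice per genotype, so p-values measure the spread between 3 pools and 3 pools.

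The integrated stress response begins when kinases that sense misfolded protein in the endoplasmic reticulum (ER), amino acid shortage, heme shortage or double-stranded RNA phosphorylate the translation initiation factor eIF2. Most protein synthesis then falls while a few mRNAs, among them those of the transcription factors ATF4 and ATF5, are translated more, and ATF4 raises transcription of genes for amino acid supply, redox balance and, under lasting stress, cell death. In the brain, inherited defects of eIF2B, the exchange factor that phosphorylated eIF2 inhibits, cause a disease of the white matter. The arrays measured mRNA, so they did not read eIF2 phosphorylation, the translation of Atf4 mRNA or the splicing of Xbp1 mRNA.

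In B41KO microglia, the signals of 1 of 2 Atf4 probes and of Ddit3 were lower and that of Ddit4 was higher than in B41HET microglia, and the other 7 genes had no called change. The second Atf4 probe was not called, and the Ddit3 and Ddit4 calls were both lost with any 1 sample left out. A probe was called when limma's adjusted p was 0.05 or less and the absolute log2 fold change was 0.5 or more. By the probe with the highest mean signal for each gene, 1 of 10 genes was called higher, where 1.45% of all genes were, and 2 of 10 were called lower, where 4.01% of all genes were. By probe, 1 of 15 was called higher (1.72% of all probes) and 2 of 15 lower (3.34% of all probes). The median log2 fold change, B41KO minus B41HET, was 0.04 over the 10 genes and 0.01 over all genes. With so few genes, shares of the set are coarse.

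Promoters of the 3 called genes and of the 2 genes with a match to the ATF4 element are shown, because Bhlhe41 acts on promoters and ATF4 drives several genes of the set. They come from RefSeq on GRCm38.p6 and run from 250 bases before to 50 after the start of transcription, 5′ to 3′ on the gene's strand. Capitals mark any of 4 motifs searched on both strands: TGATGNAA, the core of the element that ATF4 binds with a C/EBP partner; CCAAT and CCACG, the end parts of the ER stress element; and CACGTG, the E-box that Bhlhe41 binds. CCACG can share bases with CACGTG.
Atf4 promoter, chr15:80254934-80255233, plus strand: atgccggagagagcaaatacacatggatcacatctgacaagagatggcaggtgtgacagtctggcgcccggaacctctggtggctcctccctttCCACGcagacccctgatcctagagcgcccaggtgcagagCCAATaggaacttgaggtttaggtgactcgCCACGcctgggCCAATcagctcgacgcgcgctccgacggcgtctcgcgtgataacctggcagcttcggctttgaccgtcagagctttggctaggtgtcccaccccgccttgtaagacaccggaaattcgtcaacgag
Ddit3 promoter, chr10:127290543-127290842, plus strand: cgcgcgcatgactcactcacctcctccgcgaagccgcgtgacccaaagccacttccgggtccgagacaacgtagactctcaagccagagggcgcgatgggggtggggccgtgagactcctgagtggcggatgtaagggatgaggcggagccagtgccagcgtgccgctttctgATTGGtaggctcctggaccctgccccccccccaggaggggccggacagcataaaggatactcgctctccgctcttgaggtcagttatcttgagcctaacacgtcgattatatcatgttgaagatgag
Ddit4 promoter, chr10:59951721-59952020, minus strand: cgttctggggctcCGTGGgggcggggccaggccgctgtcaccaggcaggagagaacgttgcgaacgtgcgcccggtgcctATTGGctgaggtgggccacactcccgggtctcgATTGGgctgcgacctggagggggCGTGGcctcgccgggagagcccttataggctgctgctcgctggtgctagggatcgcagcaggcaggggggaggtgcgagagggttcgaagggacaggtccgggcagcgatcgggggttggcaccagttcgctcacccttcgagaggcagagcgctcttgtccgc
Chac1 promoter, chr2:119350992-119351291, plus strand: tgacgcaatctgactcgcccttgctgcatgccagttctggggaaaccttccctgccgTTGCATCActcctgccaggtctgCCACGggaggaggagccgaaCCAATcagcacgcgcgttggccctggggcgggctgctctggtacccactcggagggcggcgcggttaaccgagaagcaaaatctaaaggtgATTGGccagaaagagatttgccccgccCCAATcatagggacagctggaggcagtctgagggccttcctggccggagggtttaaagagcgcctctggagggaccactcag
Trib3 promoter, chr2:152344011-152344310, minus strand: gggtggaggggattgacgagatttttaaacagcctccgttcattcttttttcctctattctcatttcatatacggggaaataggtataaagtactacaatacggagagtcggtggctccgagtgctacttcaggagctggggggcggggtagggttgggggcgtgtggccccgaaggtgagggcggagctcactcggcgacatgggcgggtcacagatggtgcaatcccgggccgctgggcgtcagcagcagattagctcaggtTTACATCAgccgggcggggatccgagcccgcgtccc
All 10 genes matched, with 11 promoters, since Atf5 has 2 starts. None of the 11 held CACGTG, which 7.15% of 32851 mouse promoters of this length held. TGATGNAA was found in 2 of the 11, in Chac1 starting 193 bases before the start of transcription and in Trib3 starting 14 bases after it, both times on the reverse strand, and in 3.97% of all promoters. CCAAT was found in 7 of the 11 and in 37.4% of all promoters, and CCACG in 6 of the 11 and in 32.8% of all promoters. The Atf4 promoter held CCAAT at 117 and 76 bases and CCACG at 156 and 87 bases before the start, and the Ddit3 promoter held CCAAT alone, at 77 bases before the start. These are letter matches in a short window, and sites outside it were not searched.

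All 6 arrays lay on 1 slide, 70.0% to 75.5% of probes were well above background on each, no spot was saturated, and all 12 microglia marker genes were well above background on every array. On Bhlhe41 itself, probe A_55_P2503365 read a log2 signal of 7.95, 7.87 and 7.65 in B41HET samples 1 to 3 and 8.56, 7.84 and 8.21 in B41KO samples 1 to 3, and the groups overlapped (log2 fold change 0.38, SE 0.20, limma adjusted p = 0.330). The second Bhlhe41 probe, A_55_P2133001, gave 0.33 (SE 0.13, limma adjusted p = 0.203). The cassette carries a polyA signal, and where these probes lie relative to it was not analysed here. Neither probe was called, and they were not used to check the genotype labels. The slide has 2 rows: row 1 held all B41HET samples and B41KO sample 1, and row 2 held B41KO samples 2 and 3. A fit with the row as a block therefore rests on B41KO sample 1 against the 3 B41HET samples, and its value is given beside each called gene of the set as the value within a row.

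Atf4, the transcription factor at the centre of the response, had the largest called difference of the set, on 1 of its 2 probes. Probe A_52_P139727, the brighter one, read a log2 signal of 11.78, 11.90 and 11.76 in the B41HET samples and 10.80, 10.81 and 10.68 in the B41KO samples. Every B41KO sample lay below every B41HET sample, with a gap of 0.95 between the nearest samples. The means were 11.81 ± 0.08 and 10.76 ± 0.07 (SD, n = 3 each), a 2.07-fold lower signal in B41KO, and the log2 fold change was −1.05 (SE 0.08, 95% interval −1.25 to −0.85, limma adjusted p = 0.0044). Within the slide row it was −1.01 with an adjusted p of 0.0553, which misses the threshold, and with each sample left out in turn it stayed between −1.08 and −1.01 with adjusted p between 0.0208 and 0.0293.

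The second Atf4 probe, A_55_P1979728, gave another reading of the same transcript record. It read 10.84, 10.96 and 11.02 in the B41HET samples and 10.81, 10.86 and 10.80 in the B41KO samples, and the groups overlapped. Its log2 fold change was −0.12 (SE 0.08, 95% interval −0.31 to 0.07, limma adjusted p = 0.435), an interval that does not reach the fold threshold of 0.5 in either direction. The difference between the 2 probes within an array, first minus second, was 0.93, 0.94 and 0.74 in B41HET and −0.01, −0.05 and −0.12 in B41KO, so it moved by −0.93 with no overlap (exact two-sided permutation p = 0.1, the smallest that 3 against 3 samples allow). The 2 probes of Atf4 thus gave unequal differences between the genotypes, with 1 of them called. With the 2 probes averaged, the log2 fold change of Atf4 was −0.58 (limma adjusted p = 0.0124, adjusted over genes). Where each probe lies in the transcript was not analysed here.

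**Figure D1:**
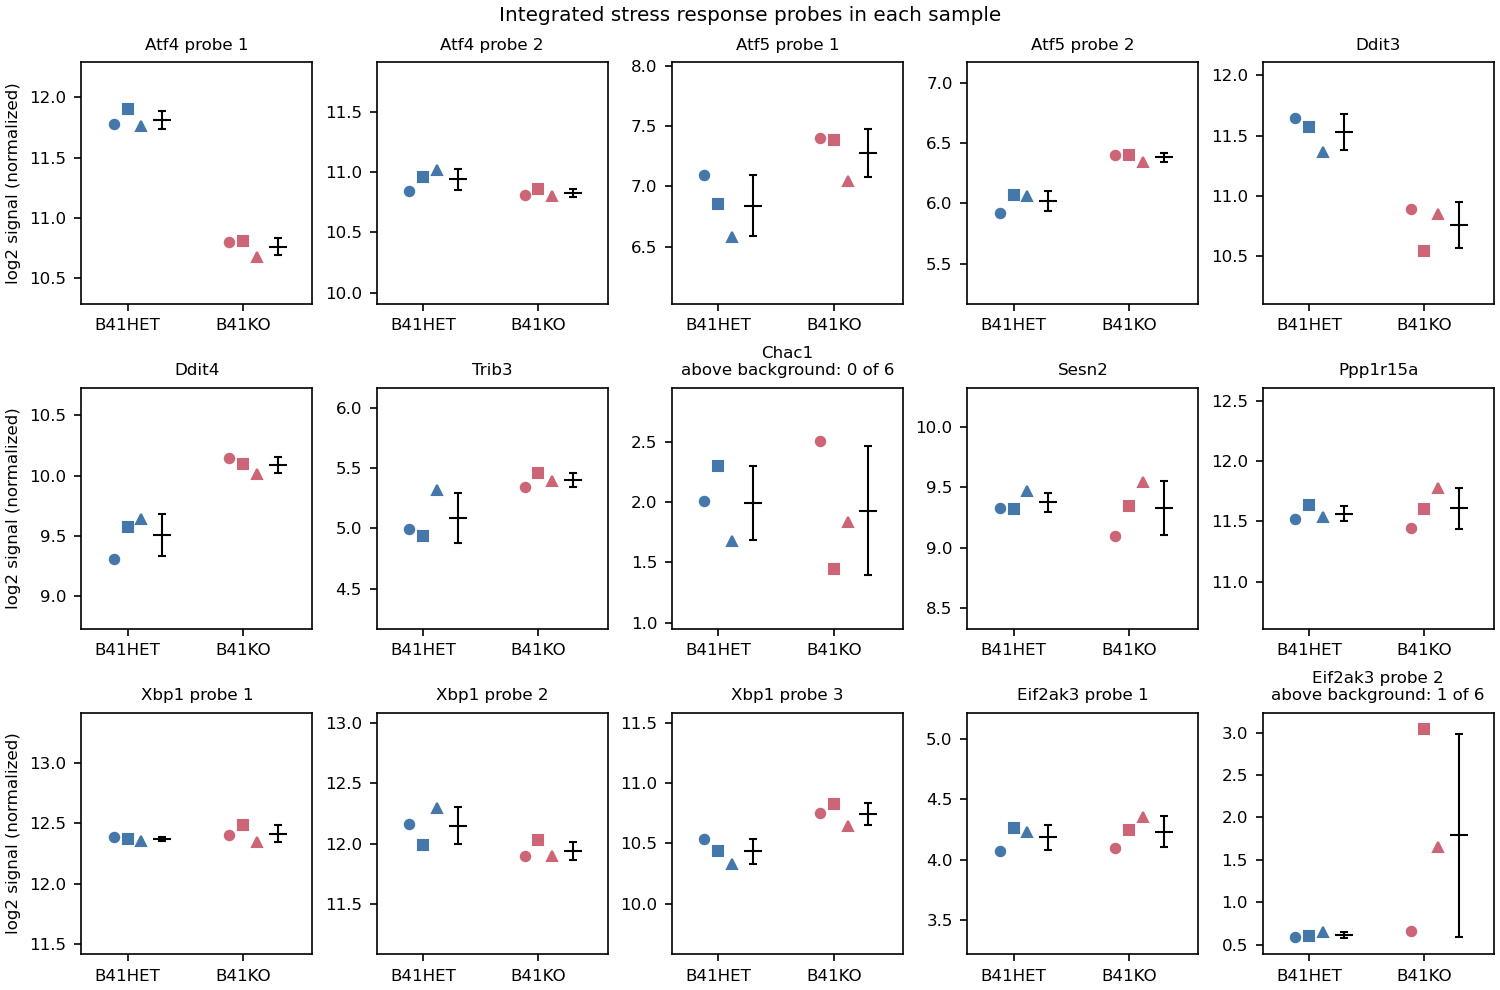
Log2 signal, quantile normalized, of each of the 15 probes (vertical axis, a separate scale per panel) in the 3 B41HET samples (blue) and the 3 B41KO samples (red), with symbols for sample number (circle 1, square 2, triangle 3) and bars for the mean and SD. The B41KO samples lie 0.95 or more below the B41HET samples on Atf4 probe 1 (A_52_P139727) and overlap them on Atf4 probe 2, and 2 panels hold probes that were not well above background on most arrays.

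**Figure D2:**
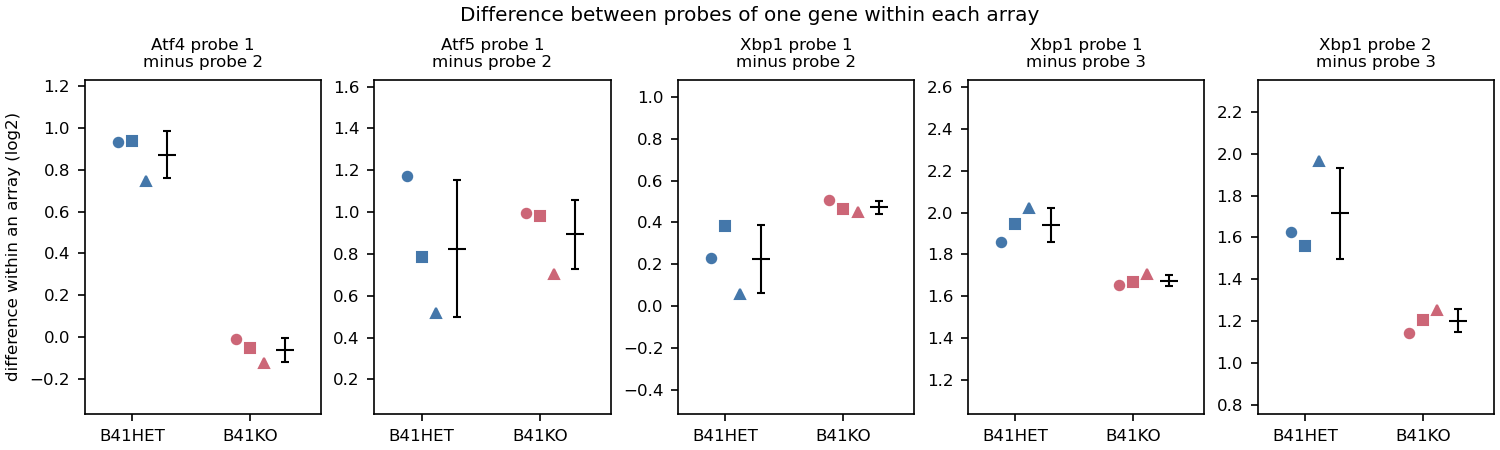
Difference in log2 signal between probes of 1 gene within each array (vertical axis), by genotype, for Atf4, Atf5 and Xbp1, with symbols for sample number and bars for the mean and SD. The Atf4 difference lies between 0.74 and 0.94 in B41HET and between −0.12 and −0.01 in B41KO, and the groups overlap for Atf5 only.

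Genes whose signal followed that of Atf4 probe A_52_P139727 most closely were sought among the brightest probes of 17202 genes well above background on all 6 arrays. The 5 with the highest Pearson r over the 6 arrays, as a description, were Mmp14 (0.999), a membrane-bound metalloproteinase, Atat1 (0.999), a tubulin acetyltransferase, Serpinf1 (0.999), a secreted serpin, Usp35 (0.999), a deubiquitinase, and Cep152 (0.998), a centriole protein. All 5 were called lower in B41KO, with log2 fold changes from −1.58 for Mmp14 to −0.57 for Usp35. The 6 points fall into the 2 genotypes, so r is high for any gene with a large and even genotype difference.

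Atf5, a relative of Atf4 whose mRNA is translated under the same control, leaned upward without a call. Probe A_51_P269216 read 7.09, 6.85 and 6.58 in the B41HET samples and 7.40, 7.39 and 7.04 in the B41KO samples, which overlapped (log2 fold change 0.43, SE 0.17, limma adjusted p = 0.202). Probe A_55_P2105858 read 5.92, 6.07 and 6.06 in B41HET and 6.40, 6.40 and 6.34 in B41KO, with every B41KO sample above every B41HET sample. Its log2 fold change of 0.37 (SE 0.08, 95% interval 0.18 to 0.55) had an adjusted p of 0.0490 and fell short of the fold threshold. Both Atf5 probes were designed on 1 transcript record, and the difference between them within an array changed by 0.07 between the genotypes, with overlapping groups.

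Ddit3, which encodes CHOP, the transcription factor tied to cell death under lasting stress, was called lower. Its probe A_52_P533146 read 11.65, 11.57 and 11.36 in the B41HET samples and 10.89, 10.54 and 10.85 in the B41KO samples. The groups lay 0.47 apart at their nearest samples. The means were 11.53 ± 0.15 and 10.76 ± 0.19 (SD, n = 3 each), a 1.70-fold lower signal, and the log2 fold change was −0.77 (SE 0.13, 95% interval −1.09 to −0.44, limma adjusted p = 0.0319). The call was lost whichever of the 6 samples was left out, with values from −0.85 to −0.66 and adjusted p from 0.0616 to 0.113, and within the slide row the value was −0.64 (adjusted p = 0.218).

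Ddit4, which encodes REDD1, an inhibitor of mTORC1 signalling that also answers to glucocorticoids and low oxygen, was the 1 gene called higher. Its probe A_51_P245796 read 9.31, 9.58 and 9.64 in the B41HET samples and 10.15, 10.09 and 10.02 in the B41KO samples. The nearest samples of the groups were 0.38 apart, and the spread was wider in B41HET. The means were 9.51 ± 0.18 and 10.09 ± 0.07 (SD, n = 3 each), a 1.49-fold higher signal, and the log2 fold change was 0.58 (SE 0.11, 95% interval 0.31 to 0.85, limma adjusted p = 0.0403). This call too was lost without any 1 of the 6 samples (0.48 to 0.64, adjusted p 0.0718 to 0.115), within the slide row (0.64, adjusted p = 0.183) and when arrays were aligned on their 75th percentiles and not quantile normalized (0.55, adjusted p = 0.0569).

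**Figure D3:**
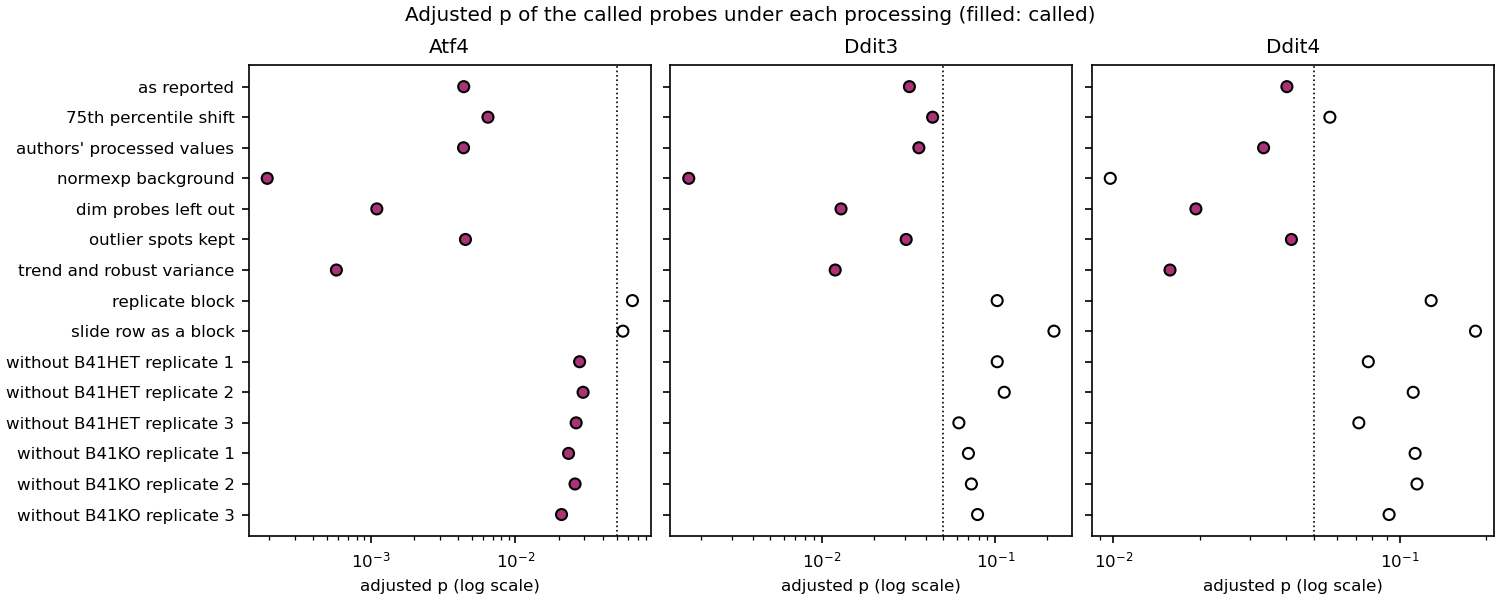
Limma adjusted p (log axis) of the called probes of Atf4, Ddit3 and Ddit4 as reported and under 14 alternatives, filled where the probe was called, with the dotted line at 0.05. Atf4 was called in 12 of the 14 alternatives, Ddit3 in 6 and Ddit4 in 4.

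The other targets of ATF4 in the set had no called change. Trib3, a pseudokinase that restrains ATF4 and AKT, read 4.99, 4.94 and 5.32 in the B41HET samples and 5.35, 5.46 and 5.40 in the B41KO samples. Its groups were 0.03 apart, with a log2 fold change of 0.32 (SE 0.12, 95% interval 0.02 to 0.61, limma adjusted p = 0.195). Chac1, an enzyme that breaks down glutathione, was not well above background on any of the 6 arrays, so no fold is given. These 2 genes were the ones whose promoters matched TGATGNAA.

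Sesn2, a leucine-sensing inhibitor of mTORC1 that also limits oxidative stress, read 9.33, 9.33 and 9.47 in the B41HET samples and 9.10, 9.35 and 9.55 in the B41KO samples. The B41KO samples lay on both sides of the B41HET samples, and the log2 fold change was −0.04 (SE 0.13, 95% interval −0.37 to 0.28, limma adjusted p = 0.885).

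Ppp1r15a, which encodes GADD34, the regulatory subunit that directs a phosphatase to eIF2, read 11.52, 11.64 and 11.54 in the B41HET samples and 11.44, 11.60 and 11.78 in the B41KO samples. The groups overlapped, and the log2 fold change of 0.04 (SE 0.11) had a 95% interval of −0.22 to 0.30 and an adjusted p of 0.860 by limma.

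The only ER stress sensor gene in the set gave no call on either of its probes. Eif2ak3, which encodes PERK, the eIF2 kinase of the ER membrane, read 4.07, 4.26 and 4.23 in the B41HET samples and 4.09, 4.25 and 4.36 in the B41KO samples on probe A_55_P2048744. The groups overlapped almost fully (log2 fold change 0.05, SE 0.10, 95% interval −0.21 to 0.30, limma adjusted p = 0.837). The second Eif2ak3 probe, designed on another transcript record, was not well above background on any B41HET array and was so on 1 B41KO array, and no fold is given for it.

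Xbp1, the transcription factor made active when IRE1 splices its mRNA, was measured by 3 probes on 1 transcript record. The brightest, A_55_P2739653, read 12.39, 12.37 and 12.35 in the B41HET samples and 12.40, 12.49 and 12.35 in the B41KO samples, which overlapped (log2 fold change 0.04, SE 0.07, 95% interval −0.14 to 0.22, limma adjusted p = 0.787). Probe A_52_P185079 gave −0.21 (SE 0.10, adjusted p = 0.304) with overlapping groups, and probe A_55_P1994032 gave 0.31 (SE 0.09, adjusted p = 0.111) with every B41KO sample above every B41HET sample. Within arrays, the difference between each pair of Xbp1 probes moved with genotype without overlap, by 0.25, −0.27 and −0.51 (exact two-sided permutation p = 0.1 for each, the smallest possible here). None of the 3 Xbp1 probes was called. Of all 15 probes of the set, 5 had every B41KO sample above every B41HET sample, where 14.5% of all probes did, 1 of the 5 being the second Eif2ak3 probe, which was not well above background on any B41HET array and whose groups were 0.013 apart, and 2 had every B41KO sample below, where 15.2% did.

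**Figure D4:**
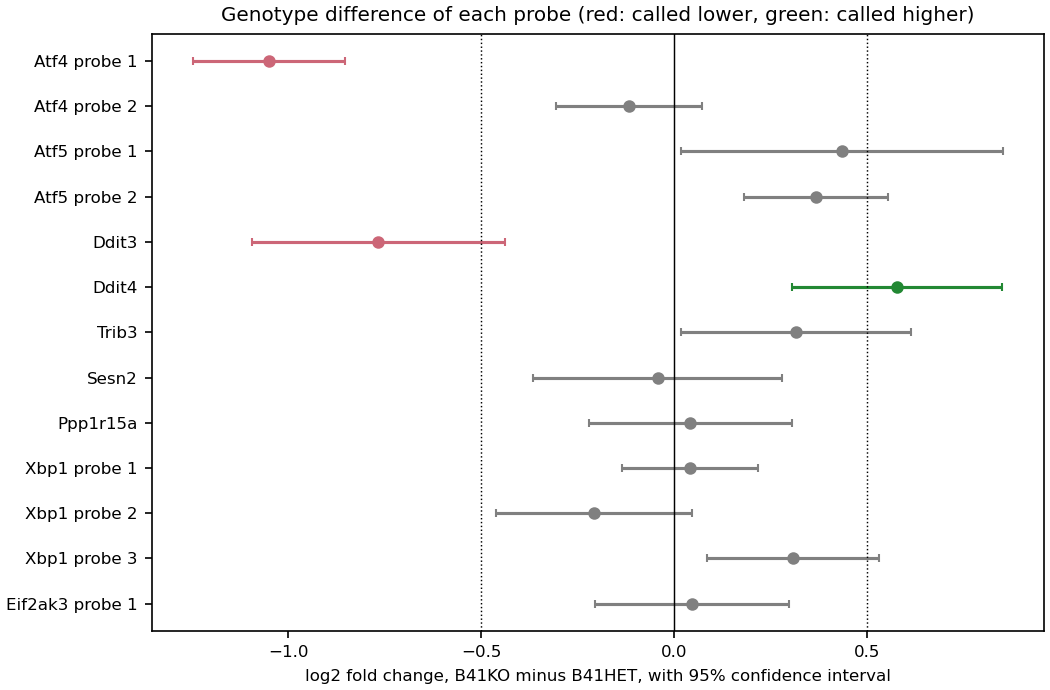
Log2 fold change, B41KO minus B41HET, with its 95% confidence interval (horizontal axis) for the 13 probes well above background on at least 1 array of each genotype. Red marks called lower, green called higher, and dotted lines stand at −0.5 and 0.5. Only Atf4 probe 1 and Ddit3 lie at or beyond −0.5, and Ddit4 lies at 0.58.

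Beyond the set, 5 lists of genes of the same pathway, 116 genes in all, were read on their brightest probes. Of these, 1 was called higher (0.862%, where 1.45% of all genes were) and 6 were called lower (5.17%, where 4.01% of all genes were), and their median log2 fold change was −0.04. Counts at an unadjusted p under 0.05 by limma were 12 higher and 26 lower. Over all 23458 genes they were 2491 higher and 3379 lower, which also stand beside such counts for each list below. With the slide row as a block, 1 of the 116 was called higher and 1 lower. When arrays were aligned on their 75th percentiles, which moved the median of all probes from 0.02 to 0.13, every list median kept its sign.

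Among 17 genes for the eIF2 kinases, eIF2 and eIF2B and their regulators, 1 was called lower, none was called higher (1 at an unadjusted p under 0.05 by limma), and the median was 0.06, or 0.00 after normexp background correction. The called gene was Eif2ak1, which encodes HRI, the heme-regulated eIF2 kinase. Its log2 signal was 7.41 ± 0.10 in B41HET and 6.82 ± 0.09 in B41KO (SD, n = 3 each), a log2 fold change of −0.60 (SE 0.09, limma adjusted p = 0.0229). Its second probe, A_66_P118105, gave −0.41 (SE 0.17, 95% interval −0.83 to 0.01, adjusted p = 0.224) and was not called. The Eif2ak1 call was lost with a sample left out, except without B41KO sample 3 (adjusted p = 0.0470 to 0.0763).

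Among 10 bZIP and C/EBP genes whose proteins pair with ATF4 or share its targets, 1 was called lower, none was called higher (0 at an unadjusted p under 0.05 by limma), and the median was −0.03, or 0.02 on the authors' processed values. Atf3, a repressor induced by many stresses, read 14.32, 14.21 and 14.17 in the B41HET samples and 13.11, 12.93 and 12.85 in the B41KO samples. Its log2 fold change of −1.27 (SE 0.10, limma adjusted p = 0.0043) was larger in size than that of any called gene of the set and was called with each sample left out in turn (adjusted p = 0.0142 to 0.0318), and Atf3 also stands on the list of genes raised by cell handling described below.

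Among 32 genes for amino acid synthesis, amino acid transport and tRNA charging, all known targets of ATF4 in other settings, 1 was called higher and none lower. The median was 0.04. At an unadjusted p under 0.05 by limma 6 were higher and 5 lower, and at an adjusted p of 0.05 or less 3 were higher and none lower. Every B41KO sample lay above every B41HET sample for 9 genes (14.2% of all genes) and below for 6 (18.0% of all genes). Phgdh, the first enzyme of serine synthesis, rose from 10.19 ± 0.17 in B41HET to 10.90 ± 0.18 in B41KO (SD, n = 3 each), a log2 fold change of 0.71 (SE 0.13, limma adjusted p = 0.0396). The call was lost with any 1 sample left out (adjusted p = 0.0633 to 0.112), and with the slide row or the replicate number as a block. Of the 32 values, 20 were positive and 12 negative (37.5% negative, where 48.8% of all genes were).

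Among 26 further stress targets, 4 were called lower, none was called higher (2 at an unadjusted p under 0.05 by limma), and the median was −0.07, with 11 of the 26 lower in every B41KO sample than in every B41HET sample (18.0% of all genes were) and 3 higher in every B41KO sample (14.2% of all genes were). Gadd45b, a stress sensor of the GADD45 family, fell by 0.95 on the log2 scale (SE 0.12, limma adjusted p = 0.0156). Sqstm1, the autophagy receptor p62, fell by 0.62 on its brighter probe (SE 0.07, adjusted p = 0.0115), while its second probe gave −0.42 (SE 0.16, adjusted p = 0.188) and was not called. Klf4, a transcription factor, fell by 0.55 (SE 0.08, adjusted p = 0.0182), and Jun, a subunit of AP-1, fell by 0.55 (SE 0.08, adjusted p = 0.0188). The calls of Klf4 and Jun were lost with any 1 sample left out (adjusted p = 0.0521 to 0.0839). That of Gadd45b held without B41HET sample 1 or 2 and was lost without any other (0.0371 to 0.0595), and that of Sqstm1 was lost without B41HET sample 1 or 2 (0.0386 to 0.0576). Relatives of Jun and Klf4, namely Junb, Jund and Klf2, stand on the list of genes raised by cell handling described below. The part of handling in these 4 lower calls was not tested.

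Among 31 ER stress sensors and chaperones, the targets of ATF6 and XBP1 in particular, none was called in either direction by limma. At an unadjusted p under 0.05, 3 were higher and 6 lower, where 2491 and 3379 of all 23458 genes were. At an adjusted p of 0.05 or less 2 were lower, and these missed the fold threshold. The median was −0.13, and 20 of the 31 values were negative (64.5%, where 48.8% of all genes were). For 13 genes every B41KO sample lay below every B41HET sample (18.0% of all genes) and for 5 above (14.2% of all genes). Manf, a secreted ER stress protein named here after its values were seen, was uncalled on its brighter probe (−0.24, SE 0.10, adjusted p = 0.220) and called lower on its second probe, A_51_P418168 (−0.64, SE 0.10, adjusted p = 0.0245).

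**Figure D5:**
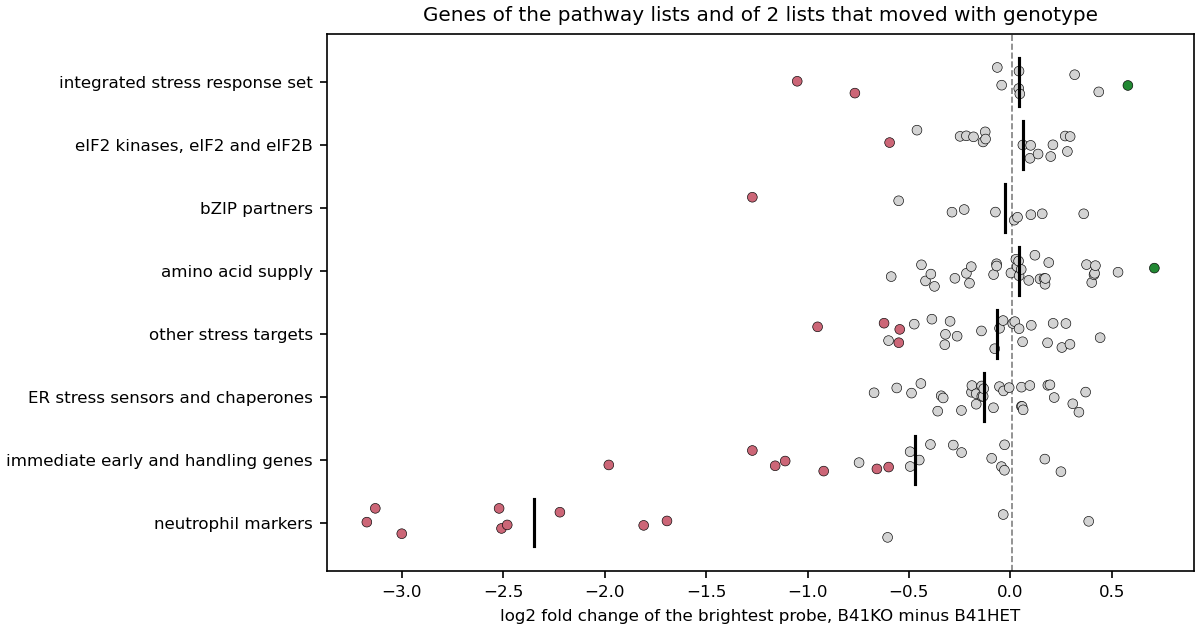
Log2 fold change of the brightest probe, B41KO minus B41HET (horizontal axis), for the genes of the set, the 5 pathway lists, the list of immediate early and handling genes and the neutrophil list. Points are genes (red called lower, green called higher), black bars are list medians, and the dashed line is the median of all genes, 0.01. The medians of the 5 pathway lists lie between −0.13 and 0.06, that of the handling genes at −0.47 and that of the neutrophil markers at −2.35.

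Markers of other cells and of cell handling moved with genotype beside these results. Over all genes, 4.01% were called lower and 1.45% higher, which stand beside the marker counts that follow. Of 12 neutrophil markers, 9 were called lower, and their summed linear signal was 31447 to 35373 in the B41HET samples and 6267 to 6657 in the B41KO samples, with all 12 well above background on every array. Of 20 immediate early and handling genes, which rise when microglia are dissociated and sorted, 7 were called lower, none was called higher (0 at an unadjusted p under 0.05 by limma), and the summed signal was 128249 to 135540 in B41HET and 91131 to 94425 in B41KO. The groups did not overlap on either sum, and both sums were lower in B41KO. Atf3 is 1 of the 20 handling genes, and without it 6 of the other 19 were called lower and the summed signal was 109773 to 115077 in B41HET and 83728 to 85775 in B41KO.

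Of 12 border macrophage markers, 6 were called lower (sums 2656 to 2860 against 1818 to 1972), of 10 endothelial markers 2, Ly6c1 and Pecam1 (1224 to 1336 against 488 to 522), and of 12 B cell and plasma cell markers 3 (2323 to 2556 against 2217 to 2299), with 9, 5 and 10 of these well above background on every array. The median of the 10 endothelial markers was −0.07 with 4 values positive, or 0.08 with 6 positive when arrays were aligned on their 75th percentiles, and their other 8 genes were not called. Of the 12 microglia markers 1, Fcrls, was called lower (8.33%, where 4.01% of all genes were), with sums of 192571 to 207197 against 190337 to 197413. The sorting gate, CD45low CD11b+ Cx3cr1+, is one that should leave out neutrophils, endothelial cells and B cells. The part of these other cells and of handling in the differences of Atf4, Ddit3 and Ddit4 was not tested. In sorted bulk samples, fewer cells of a type that carries a transcript and less of it per cell cannot be told apart.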

How the data were processed

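Microglial RNA of 3 B41HET and 3 B41KO samples was labelled with Cy3 and hybridized to Agilent SurePrint G3 Mouse GE v2 8x60K arrays, 1 sample per array. For each array the authors deposited a scanner file from Feature Extraction 11.5.1.1, whose processed intensity was background-subtracted within the array and not normalized between arrays. They also deposited a table of log2 values for all arrays, which held the same quantiles in each column (median 5.11), ranked probes as the arrays did and was used as an alternative. Columns of other samples were not found in it.

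Control spots were left out (59305 of 62976 spots remained), outlier spots (95 to 136 per array) were left out on their array, and log2 intensity was quantile normalized and then averaged where a probe had several spots (56605 probes). Of these, 56601 had values in at least 2 samples of each genotype and were fitted with limma 3.58.1 in R 4.3.3, with genotype as the only term and all 6 samples. Benjamini-Hochberg adjustment ran over all probes tested, and the thresholds of the study's methods were used (adjusted p of at most 0.05 and a log2 fold change of at least 0.5 in size). The model was tested on simulated data. The package data.table was at version 1.17.8, Python at 3.11.15 and matplotlib, used for the plots, at 3.10.9. Probes were named by transcript accession through RefSeq's mouse genes, assembly GRCm38.p6 (33762 probes, 59.6%). The array design names mm9, so coordinates are given for RefSeq promoters alone. A log2 signal compares samples on 1 probe and not 1 probe with another. The number of arrays limits the precision.

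The genes of the set and the lists were chosen with earlier results of these data known, and the lists support nothing on their own. Named were all genes of the set, the called genes with the largest change in each pathway list (at most 4), Bhlhe41, and the 5 genes most like Atf4. Manf, Asns, Psat1, Eprs, Fcrls, Ly6c1 and Pecam1 fall outside this rule and were named after their values were seen. The alternatives were a shift to the 75th percentile, the authors' values, normexp background correction (offset 50) on the median signals, a filter on dim probes, outlier spots kept, a trended and robust variance, a block for replicate number or for slide row, fits without 1 sample, other fold thresholds, and the mean or the lowest p over the probes of a gene. Whether replicate numbers pair the samples was checked by correlating deviations from the group means.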

Additional observations from a re-analysis of the deposited data

How the results depend on the processing

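Over all probes, 975 were called higher and 1892 lower (34.0% higher). The counts were 1297 and 1534 with the 75th percentile shift (45.8% higher), 423 and 1077 after normexp background correction, 184 and 260 with slide row as a block, 249 and 550 at a fold threshold of 1, and 242 to 513 and 550 to 1024 with 1 sample left out. With the replicate block they were 2 and 40. Deviations from the group means correlated at r = 0.03, 0.01 and 0.05 for same-numbered samples and at −0.05 to 0.03 for the other pairs. Such low values over all probes cannot exclude a shared preparation, so whether the numbers pair the samples was not settled.

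Of the set, 1 gene was called higher and 2 lower, with the same counts by probe. The higher call, Ddit4, was lost (0 genes, 0 probes) with the 75th percentile shift, after normexp correction (log2 fold change 0.49, adjusted p = 0.00975), with either block, with any 1 sample left out, and at a fold threshold of 1. The lower calls were 0 with the replicate block (adjusted p = 0.0643 for Atf4, 0.103 for Ddit3) or slide row as a block, and 1, Atf4, with any 1 sample left out or at a fold threshold of 1. With no fold threshold, 2 probes were called higher. The pathway lists had 1 gene called higher and 6 lower. They had 9 lower after normexp, with the filter on dim probes and with the trended and robust variance, and 7 lower on the authors' values or with outlier spots kept. They had 0 and 0 with the replicate block, 1 lower with the slide row, 0 higher and 2 to 3 lower with 1 sample left out, 3 higher and 10 lower with no fold threshold, and 0 and 1 at a threshold of 1. They had 3 higher with the mean or the lowest p over a gene's probes, and 7 or 8 lower. Why these counts differ was not tested, and the fits with 1 sample left out also held fewer samples.

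The signs that turned belonged to uncalled probes. None of the 6 arrays read Chac1 well above background, so its values are differences between background-level readings and not folds, and neither their size nor their sign is read: −0.35 to 0.18 with 1 sample left out, 0.15 with the percentile shift, 0.037 after normexp and 0.51 with the slide row. With 1 sample left out, Sesn2 ranged from −0.15 to 0.073, Ppp1r15a from −0.044 to 0.12 and Eif2ak3 from −0.015 to 0.12, so each of these turned. Ppp1r15a (−0.12) and Eif2ak3 (−0.094) also turned with the slide row, and Xbp1 after normexp (−0.018). Every other direction of the probes of the set held under all alternatives run. Signal over background was the limit for Chac1 and the second Eif2ak3 probe.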

Other observations

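In the amino acid list, probes of 1 gene differed in their calls, as the 2 Atf4 probes did. These genes were singled out after their values were seen. Asns, which encodes asparagine synthetase, had a log2 fold change of 0.53 on its brighter probe (SE 0.15, limma adjusted p = 0.103) and of 1.61 on its second probe (SE 0.15, adjusted p = 0.00772), which read 5.20, 4.67 and 4.80 in the B41HET samples and 6.59, 6.39 and 6.51 in the B41KO samples. Psat1, an enzyme of serine synthesis like Phgdh, gave 0.41 on its brighter probe (adjusted p = 0.0478, under the fold threshold) and 1.42 on the other (SE 0.19, adjusted p = 0.0178). Eprs, a tRNA synthetase gene with 4 probes, went the other way: A_52_P653684 was called lower (−0.60, SE 0.11, adjusted p = 0.0399), the brightest gave 0.12 (adjusted p = 0.455), and neither of the remaining probes was called. Over all 174 probes of the pathway lists, 3 were called higher (1.72%, the same share as over all probes) and 8 lower (4.6%, against 3.34% over all probes). Why the probes of a gene differ was not tested.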
